A study of Mus musculus with 6 samples.

Results

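The genes described here are the immunoglobulin constant region genes of the mouse and the gene of the joining chain. They are 10 of the 54532 genes with deposited values, taken by name from a list that was chosen with earlier results of these data known. Ighm, Ighd, Ighg1, Ighg2b, Ighg2c, Ighg3 and Igha encode the heavy chains of IgM, IgD, the IgG subclasses and IgA. Igkc and Iglc1 encode the kappa and lambda light chains, and Jchain is the last of the 10. All 10 were found, and all 10 had reads in each of the 6 RNA-seq libraries. There was 1 library per condition, so no difference below has a replicate check and no p-value is given. Intervals are 95% intervals that cover counting error only.

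The libraries came from C57BL/6 mice. In the study's methods the animals were 6 to 8 weeks old. WT mice carried no leukemia. MA9 mice had been transplanted with acute myeloid leukemia (AML) cells that had been made by infecting c-kit+ bone marrow (BM) cells with a retrovirus carrying the MLL-AF9 fusion gene and GFP. FE marks mice made iron-overloaded by intraperitoneal iron dextran, given 6 times in 0.2 mL at 25 mg/mL, with PBS for the controls. Each of the 4 kinds of mice (WT, WT/FE, MA9, MA9/FE) gave 1 macrophage library, and MA9 and MA9/FE mice gave 1 library each of GFP+ leukemia cells. Leukemia cells are labelled as BM and macrophages as spleen, whereas the study's methods describe BM macrophages sorted as GFP- Gr-1lo F4/80+ CD115int cells. This conflict was not resolved. The sources do not say whether the RNA of a library came from 1 animal or from a pool.

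An antibody consists of paired heavy and light chains, each with a variable part that binds antigen and a constant part. A naive B cell makes IgM and IgD from the same rearranged heavy chain gene by alternative splicing. After activation, class switch recombination can take place, which joins the variable segment to a downstream constant gene and changes the isotype to IgG, IgE or IgA. Plasma cells transcribe the immunoglobulin genes at very high levels and secrete the product, and the J chain links IgM and IgA into polymers. Macrophages are not known as producers of antibody and bind it through Fc receptors.

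In mm10 the heavy chain genes lie on the minus strand of chromosome 12, in the order Ighm (chr12:113418558-113422730), Ighd (chr12:113406604-113416324), Ighg3 (chr12:113356224-113361232), Ighg1 (chr12:113325240-113330523), Ighg2b (chr12:113302965-113307933), Ighg2c (chr12:113285325-113288932) and Igha (chr12:113254830-113260236). Igkc is on the plus strand of chromosome 6 (chr6:70726435-70726966), Iglc1 on the minus strand of chromosome 16 (chr16:19061618-19062071) and Jchain on the minus strand of chromosome 5 (chr5:88519809-88527891).

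Ighg2c, which encodes the IgG2 subclass of this strain that binds activating Fc receptors, differed most between the macrophage libraries, and its closest relative is Ighg2b. The coding sequences of the secreted forms of these 2 genes were 85.7% identical, against 74.1% to 76.3% for the other pairs of IgG genes, so reads of 1 gene could in part be assigned to the other. Of the 1276 stretches of 50 bases in the annotated Ighg2c transcripts, 70 also occurred in Ighg2b, and no stretch of 100 bases was shared. The windows of 60 coding bases with the fewest and the most differences show how unevenly the genes can be told apart. The sequences are those of the GENCODE M21 transcripts (mm10, minus strand), and capitals mark bases that differ between the pair. In exon 3 a window was identical, at chr12:113287964-113288023 in Ighg2c and at chr12:113306964-113307023 in Ighg2b:
Ighg2c: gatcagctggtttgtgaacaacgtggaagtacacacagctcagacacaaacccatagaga
Ighg2b: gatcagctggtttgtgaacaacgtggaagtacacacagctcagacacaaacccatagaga
In exon 4 a window held 26 differences, at chr12:113287449-113287508 in Ighg2c and at chr12:113306449-113306508 in Ighg2b:
Ighg2c: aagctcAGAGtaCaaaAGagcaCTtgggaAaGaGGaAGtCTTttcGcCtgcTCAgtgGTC
Ighg2b: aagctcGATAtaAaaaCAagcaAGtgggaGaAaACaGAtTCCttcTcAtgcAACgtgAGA

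The coding ends of the secreted heavy chains show which isotypes carry the tailpiece that Jchain protein joins. The last 60 coding bases, stop codon included, are given for Ighm (chr12:113420867-113420926), Igha (chr12:113258768-113258827) and Ighg2c (chr12:113287389-113287448), with capitals for the codon of the penultimate residue where it encodes the tailpiece cysteine:
Ighm: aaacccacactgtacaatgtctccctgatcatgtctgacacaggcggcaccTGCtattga
Igha: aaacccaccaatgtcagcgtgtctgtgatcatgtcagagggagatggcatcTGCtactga
Ighg2c: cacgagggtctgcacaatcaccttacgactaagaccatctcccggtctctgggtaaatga
The IgM and IgA ends carry this codon, and the IgG2c end does not.

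Levels are given as FPKM, that is, reads divided by exon length in kilobases and by the size of the library, and recovered reads are FPKM multiplied by exon length and divided by the value of 1 read. All 60 values of the 10 genes came out as whole reads within 0.05. The depth was 16085346 to 19518358 reads per library. Reads on the 10 genes made up 2.09% of all reads in WT and 2.35% in WT/FE, against 4.22% in MA9 and 5.60% in MA9/FE macrophages, whereas leukemia cells held 0.0370% in MA9 and 0.0436% in MA9/FE. The macrophage libraries were therefore rich in antibody mRNA. Markers of B cells were also high in them. The summed level of 12 B cell markers was 2640 FPKM in WT and 2504 in WT/FE, against 1498 in MA9 and 2557 in the MA9/FE library. That of 15 macrophage markers was 535, 895, 512 and 1144 FPKM in the same order. All 12 and all 15 were above 0 in each library. B cell markers thus exceeded macrophage markers in every macrophage library, and their part in the results was not tested. In bulk RNA, fewer cells of a type and less RNA per cell cannot be told apart.

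**Figure D1:**
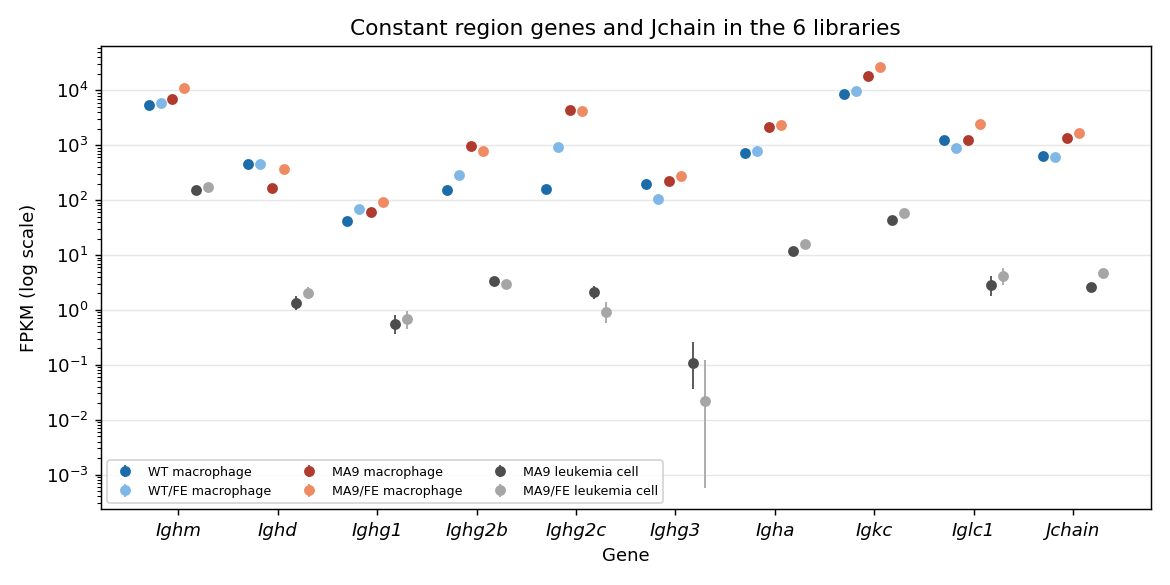
Level of each gene in the 6 libraries, in FPKM on a log axis. Points are single libraries and bars 95% Poisson intervals of the recovered reads. Each gene was lower in both leukemia cell libraries than in all 4 macrophage libraries, and Ighg2c had the widest range among the macrophages, from 158 to 4388 FPKM.

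Ighm, the heavy chain of IgM, stood at 5317 FPKM in WT and 5822 in WT/FE, against 7002 in MA9 and 11035 in MA9/FE macrophages. It ranked between the 3rd and the 4th place of all genes in each macrophage library. In leukemia cells it stood at 154 FPKM in MA9 and 177 in MA9/FE. Ighm was thus highest in MA9/FE macrophages, and WT was its lowest macrophage library.

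Ighd, the heavy chain of IgD and a feature of naive B cells, stood at 447 FPKM in WT and 453 in WT/FE, against 166 in MA9 and 369 in MA9/FE macrophages. MA9 was the low library. After the scaling between libraries described below, WT and WT/FE did not differ beyond counting error (fold 1.008, 0.985 to 1.03). Relative to Ighm, Ighd was 0.0841 in WT and 0.0777 in WT/FE but 0.0237 in MA9 and 0.0335 in MA9/FE, so this ratio was lower in both libraries from leukemic mice. Leukemia cells held 1.33 FPKM of Ighd in MA9 and 2.03 in MA9/FE, from 46 and 69 reads.

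Ighg2c stood at 158 FPKM in WT and 917 in WT/FE, against 4388 in MA9 and 4253 in MA9/FE macrophages. Its place among all genes was 272 in WT and 26 in WT/FE, against 5 in MA9 and 6 in MA9/FE. WT was the low library and WT/FE was intermediate. After the scaling between libraries described below, MA9 and MA9/FE did not differ beyond counting error (fold 0.994, 0.985 to 1.003). This depended on the scaling. For the FPKM as deposited, the intervals were 4361 to 4416 in MA9 and 4226 to 4281 in MA9/FE and did not overlap. In leukemia cells it was 2.12 FPKM in MA9 and 0.929 in MA9/FE, from 51 and 22 reads.

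Ighg2b, the IgG2b heavy chain, stood at 152 FPKM in WT and 288 in WT/FE, against 955 in MA9 and 776 in MA9/FE. The order was that of Ighg2c, with a smaller range. The ratio of Ighg2c to Ighg2b was 1.04 in WT and 3.18 in WT/FE, against 4.597 in MA9 and 5.48 in MA9/FE macrophages. Reads misassigned between these related genes would move this ratio, and the size of such misassignment was not tested. FPKM also weighs the pair unequally. The exon length in use was 1326 bases for Ighg2c, whose annotated membrane transcript ends without its 3′ UTR, and 2678 for Ighg2b. As a ratio of recovered reads the values were 0.515, 1.58, 2.28 and 2.71, which keeps the order of the libraries.

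Ighg3 and Ighg1 behaved differently from these. Ighg3, the IgG3 heavy chain, which is typical of responses to polysaccharides, stood at 196 FPKM in WT and 107 in WT/FE, against 226 in MA9 and 277 in MA9/FE macrophages. WT/FE was its low library. Ighg1, the IgG1 heavy chain, stood at 41.9, 70.0, 59.8 and 93.5 FPKM in the same order and was the lowest of the 7 heavy chain genes in every macrophage library. In leukemia cells Ighg3 rested on 5 reads in MA9 and 1 in MA9/FE, and Ighg1 on 26 and 31.

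Igha, the heavy chain of IgA, the isotype of mucosal secretions, stood at 737 FPKM in WT and 796 in WT/FE, against 2129 in MA9 and 2388 in MA9/FE. The libraries formed a low pair from leukemia-free mice and a high pair from leukemic mice. Leukemia cells held 11.8 FPKM in MA9 and 15.8 in MA9/FE.

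Igkc, the constant part of the kappa chain, which most mouse antibodies carry, stood at 8693 FPKM in WT and 9719 in WT/FE, against 18564 in MA9 and 26598 in MA9/FE macrophages. It ranked 2 among all genes in each of these libraries. Iglc1, a lambda chain gene, stood at 1242, 887, 1266 and 2400 FPKM in the same order, so WT/FE was its low and MA9/FE its high library. The ratio of Igkc to Iglc1 was 6.998 in WT and 10.96 in WT/FE, against 14.7 in MA9 and 11.1 in MA9/FE. In leukemia cells Igkc was 43.2 FPKM in MA9 and 59.3 in MA9/FE, and Iglc1 was 2.79 and 4.20 FPKM.

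Jchain stood at 645 FPKM in WT and 601 in WT/FE, against 1357 in MA9 and 1686 in MA9/FE macrophages, with the same low and high pairs as Igha. Relative to the summed Ighm and Igha, its polymerising partners, Jchain was 0.107 in WT and 0.0908 in WT/FE, against 0.149 in MA9 and 0.126 in MA9/FE. In leukemia cells it was 2.63 FPKM in MA9 and 4.63 in MA9/FE, from 120 and 208 reads.

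To ask how the differences compare with those of other genes, each pair of libraries was scaled by TMM (trimmed mean of M values), and a gene was counted as higher or lower when log2(FPKM + 1) differed by a fold of 2 or more and at least 1 of the libraries had 10 reads. This scale understates the change of low genes. Folds in the text are ratios of scaled reads, without the added 1.

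Iron in mice without leukemia went with higher Ighg2c. In WT/FE against WT macrophages, 1 of the 10 genes passed a fold of 2, Ighg2c, at 5.79-fold (5.60 to 5.99; 2.53 on the log2 scale). The background was 0.728% of 16754 genes higher and 0.543% lower. Ighg2b was 1.89-fold higher and Ighg1 1.66-fold higher, both short of the fold of 2. Ighg3 was 1.85-fold lower and Iglc1 1.41-fold lower. The remaining genes, Ighm, Ighd, Igha, Igkc and Jchain, lay between 0.927-fold and 1.11-fold. The median over the 10 genes was 0.11 on the log2 scale, beside -0.014 over all genes. Of the 12 B cell and 12 plasma cell markers, 0 passed the fold in either direction, whereas 4 of 15 macrophage markers (Mertk, Vcam1, Slc40a1 and Mrc1) and 2 of 6 erythroid markers (Hba-a1 and Hbb-bs) were higher, with medians of 0.96 and 0.88 on the log2 scale over the lists. The part of these markers was not tested.

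Leukemia in mice without iron went with a broad difference. In MA9 against WT macrophages, 5 of the 10 genes were higher, where the background was 3.79% of 16925 genes, and 1 was lower, where it was 0.91%. The higher genes were Ighg2c at 28.1-fold (27.2 to 29.0), Ighg2b at 6.36-fold, Igha at 2.92-fold, Igkc at 2.16-fold and Jchain at 2.12-fold. Ighd was 2.67-fold lower (2.59 to 2.76). Ighg1 at 1.44-fold, Ighm at 1.33-fold, Ighg3 at 1.16-fold and Iglc1 at 1.03-fold stayed short of it. The median of the 10 genes was 0.80 on the log2 scale, beside -0.003 over all genes. B cell and plasma cell markers moved apart in this pair. The median over the B cell markers was -0.71 on the log2 scale, with 1 of 12 lower (Fcer2a, the low-affinity IgE receptor of mature B cells) and 0 higher, whereas the median over the plasma cell markers was 0.9996, with 6 of 12 higher and 0 lower. Neutrophil markers summed to 3.04 FPKM in WT and 1786 FPKM in MA9, and 5 of 6 erythroid markers were higher. The neutrophil list summed to 2804 and 2139 FPKM in MA9 and MA9/FE leukemia cells, so it does not single out neutrophils. Of 7 leukemia markers 3 were higher (Mpo, Elane and Prtn3). Hoxa9, Hoxa10, Meis1 and Kit lay between -0.12 and 0.68 on the log2 scale, short of the fold. The part of these markers in the differences was not tested.

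In iron-treated mice, leukemia went with higher levels of most of the 10 genes. In MA9/FE against WT/FE macrophages, 7 of the 10 genes were higher, beside 2.93% of 16566 genes, and 0 were lower, beside 1.64%. Ighg2c was 4.71-fold higher (4.64 to 4.78), and Igha at 3.05-fold, Jchain at 2.85-fold, Igkc at 2.78-fold, Iglc1 at 2.75-fold, Ighg2b at 2.73-fold and Ighg3 at 2.64-fold followed. Ighm reached 1.92-fold and Ighg1 1.36-fold, and Ighd was 1.21-fold lower. The median of the 10 genes was 1.45 on the log2 scale, beside 0.014 over all genes. Removing the trend of the change on exon length turned the split over all genes from 486 higher and 272 lower to 330 higher and 404 lower, while 7 of the 10 genes stayed counted as higher, with a median of 1.25. Of the plasma cell markers 5 of 12 were higher, and of the B cell markers 0 of 12, with medians of 0.95 and -0.21 on the log2 scale. Neutrophil markers summed to 1.88 FPKM in WT/FE and 904 FPKM in MA9/FE, and 3 of 7 leukemia markers were higher (Mpo, Elane and Prtn3). Hoxa9, Hoxa10 and Meis1 stood at 0.62, 0.25 and 0.24 on the log2 scale and Kit at -0.54, short of the fold. Of 9 T cell markers 4 were higher (Cd3d, Cd3g, Cd8b1 and Cd6), with a median of 0.63 over the list, and 5 of 6 erythroid markers were higher. The part of these markers was not tested.

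Iron in leukemic mice went with higher Ighd, and Ighg2c stood at 0.994-fold. In MA9/FE against MA9 macrophages, 1 of the 10 genes was higher, Ighd at 2.28-fold (2.21 to 2.36), beside 1.2% of 16509 genes, and 0 were lower, beside 1.26%. Iglc1 at 1.94-fold, Ighm at 1.62-fold, Ighg1 at 1.60-fold and Igkc at 1.47-fold stayed short of the fold, as did Jchain at 1.27-fold, Ighg3 at 1.26-fold and Igha at 1.15-fold. Ighg2b was 1.20-fold lower. The median of the 10 genes was 0.45 on the log2 scale, beside 0.013 over all genes. With the length trend removed, the split over all genes went from 198 higher and 208 lower to 128 and 299, and Ighd stayed the 1 gene counted as higher. In this pair the B cell markers had a median of 0.63, with Cd79b, a signalling chain of the B cell receptor, as the 1 of 12 past the fold, and the plasma cell markers a median of 0.058. Of the macrophage markers 8 of 15 were higher, and of the erythroid markers 3 of 6. All 8 neutrophil markers had values below 0, from -1.09 to -0.49 on the log2 scale, and 2 of them (Ngp and Lcn2) passed the fold. The part of these markers was not tested. The comparisons of MA9/FE with MA9 and with WT/FE share the MA9/FE library, and those of WT/FE and MA9 with WT share the WT library.

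**Figure D2:**
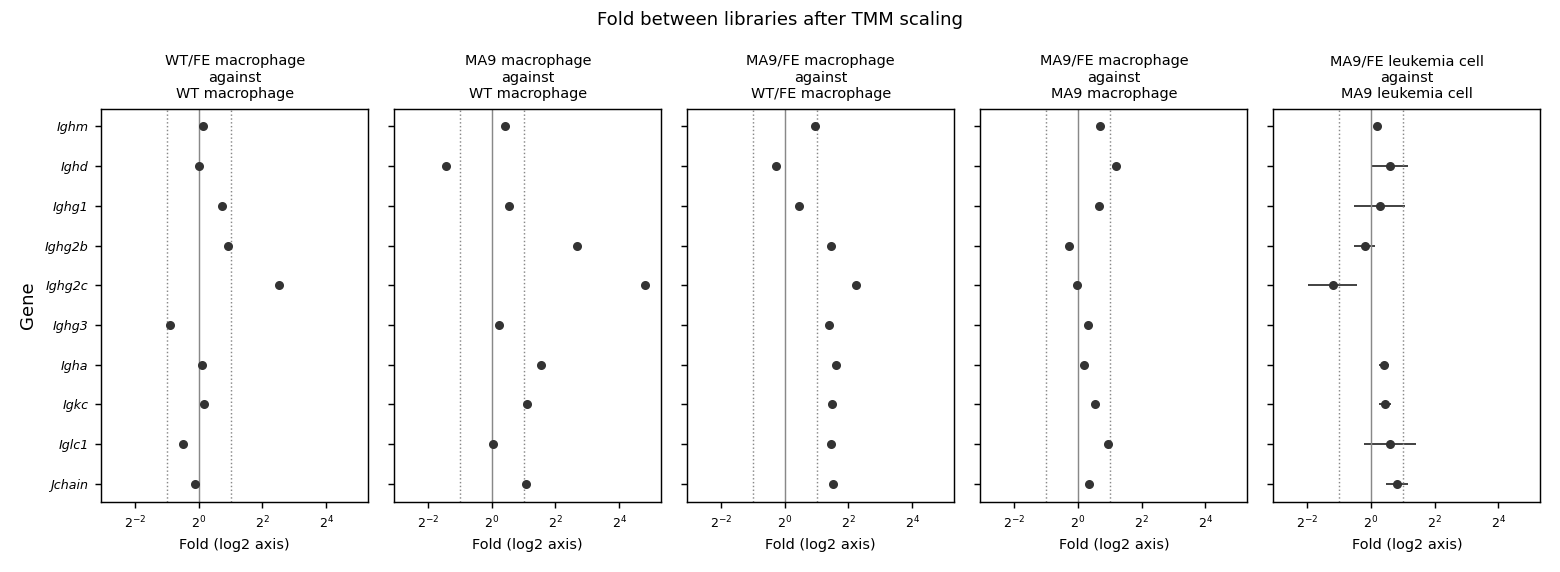
Fold of each gene in the 5 comparisons on a log2 axis, as the ratio of TMM-scaled reads with 95% counting intervals. The solid line marks equality and the dotted lines a fold of 2. Ighg3 in leukemia cells is left out because neither library reached 10 reads, and Ighg2c there lies beyond the dotted line at 0.439 but not on the log2(FPKM + 1) scale used for counting. Ighg2c stands highest in the first 3 panels, at 5.79, 28.1 and 4.71, and at 0.994 in MA9/FE against MA9.

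In leukemia cells, none of the genes was counted as higher or lower with iron. In MA9/FE against MA9 leukemia cells, 0 of the 9 genes with enough reads passed the fold of 2 in either direction, beside 0.435% of 15412 genes higher and 0.428% lower. Jchain was 1.76-fold higher (1.40 to 2.22), Ighd 1.52-fold (1.04 to 2.27), Igkc 1.37-fold (1.21 to 1.56), Igha 1.33-fold (1.19 to 1.49) and Ighm 1.14-fold (1.10 to 1.19). The 22 and 51 reads of Ighg2c gave a fold of 0.439 (0.253 to 0.736), and -0.69 on the log2(FPKM + 1) scale. Intervals of Ighg1, Ighg2b and Iglc1 included equality, so differences of these genes were not detectable at this depth. Of the erythroid markers 5 of 6 were lower in MA9/FE leukemia cells, and their part in these values was not tested.

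Composition within a library needs no scaling between libraries. As a share of the summed heavy chain FPKM, Ighm made up 75.4% in WT and 68.9% in WT/FE, against 46.9% in MA9 and 57.5% in MA9/FE. The IgG genes together made up 7.76% (7.66 to 7.86), 16.3% (16.2 to 16.5), 37.7% (37.6 to 37.9) and 28.1% (28.0 to 28.3). The IgG share was thus larger in both libraries from leukemic mice than in the others. Between these, the share of IgG was lower and that of Ighm higher in MA9/FE than in MA9. The level of the summed IgG genes was 5629 FPKM in MA9 and 5401 in MA9/FE. Ighm stood at 7002 and 11035 FPKM, so the smaller IgG share went mainly with the higher Ighm level. Ighg2c took 2.24%, 10.9%, 29.4% and 22.2% of the heavy chain FPKM. It was the largest of the IgG genes in WT/FE, MA9 and MA9/FE. Igha took 10.5%, 9.42%, 14.3% and 12.4%, and Ighd 6.34%, 5.35%, 1.11% and 1.92%. These shares depended on the length in use. With the length of the secreted transcript, Igha took 16.7%, 15.4%, 22.8% and 20.4%, and Ighd 9.93%, 8.54%, 1.74% and 3.08%. By reads, Igha stood above Ighg2c in WT/FE (12.9% and 7.42%) and in MA9/FE (17.4% and 15.4%), the reverse of the order by FPKM.

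Within the IgG genes, Ighg2c made up 28.8% in WT and 66.4% in WT/FE, against 78.0% in MA9 and 78.8% in MA9/FE macrophages. Ighg3 made up 35.8%, 7.71%, 4.01% and 5.14%, with its largest share in WT. WT was the 1 macrophage library in which Ighg3 led the IgG genes. As a share of reads, with no division by length, Ighg2c made up 17.2%, 49.9%, 64.0% and 65.1% of IgG, so Ighg2c led in the same 3 libraries.

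**Figure D3:**
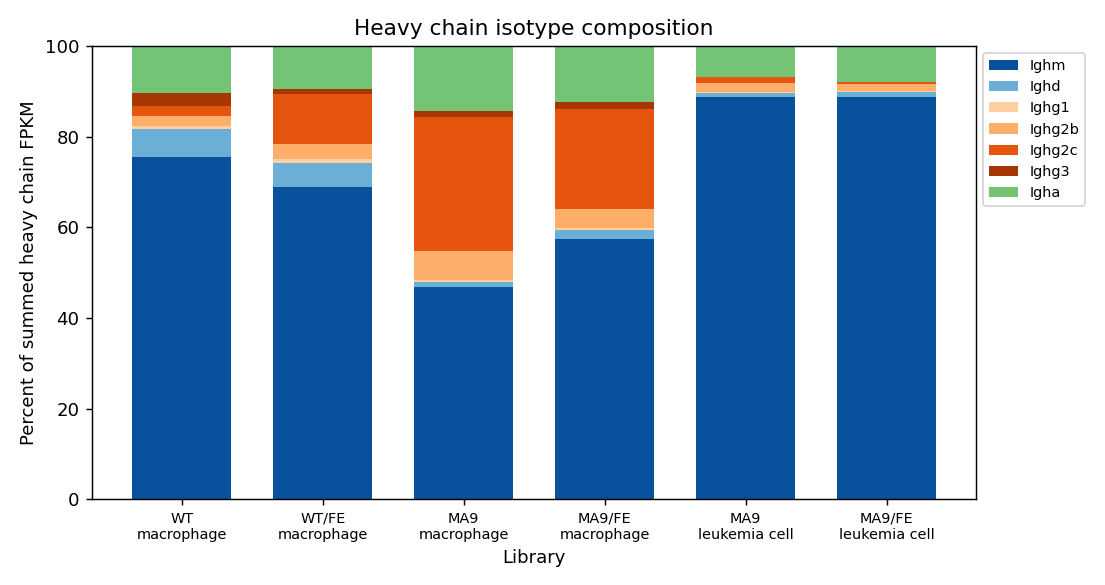
Share of each isotype in the summed FPKM of the 7 heavy chain genes, in percent, 1 bar per library. The IgG genes (orange to brown) widen from 7.76% in WT to 37.7% in MA9 macrophages, and Ighm (dark blue) makes up 88.8% and 88.7% in the leukemia cells.

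Light and heavy chain levels kept close to each other in the macrophage libraries. Igkc relative to the summed heavy chains was 1.23 in WT and 1.15 in WT/FE, against 1.24 in MA9 and 1.39 in MA9/FE. Levels of the variable segments gave a second reading of the same transcripts that does not use the constant exons. The summed FPKM of 100 Igkv segments relative to Igkc was 0.925, 0.981, 0.983 and 0.807 in the same order, and that of 113 Ighv segments relative to the summed heavy chain constant genes was 0.923, 0.962, 1.17 and 0.806. These ratios lay between 0.806 and 1.17 in the macrophage libraries. The Ighv segments summed to 6503 FPKM in WT and 8132 in WT/FE, against 17388 in MA9 and 15469 in MA9/FE macrophages. Their sum was thus lower in MA9/FE than in MA9, whereas the summed heavy chain constant level was higher, at 19193 against 14925 FPKM. The 2 readings therefore differ in direction for the heavy chains in this pair. For kappa they had the same direction, with Igkv sums of 21477 FPKM in MA9/FE and 18249 in MA9.

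Leukemia cells differed from this pattern. Relative to macrophages of the same treatment, Ighm in leukemia cells stood at 2.21% in MA9 and 1.60% in MA9/FE, while Igkc stood at 0.233% and 0.223%, Jchain at 0.194% and 0.275%, Iglc1 at 0.220% and 0.175%, and Ighg2c at 0.0483% and 0.0219%. The 12 B cell markers were spread widely on this measure. Ms4a1 (0.152% and 0.113%) and Cd79a (0.2004% and 0.125%) stood near or below Igkc, and Cr2 was the lowest (0.0370% and 0.0230%). Cd79b (5.93% and 2.66%) and Cd22 (3.07% and 2.74%) stood above Ighm. Cd37, a tetraspanin of several leukocyte types, was the highest, at 60.3% and 36.2%. Ighm was the highest of the 10 genes on this measure in both libraries. Igkc relative to the heavy chains was 0.248 (0.225 to 0.274) in MA9 and 0.298 (0.273 to 0.324) in MA9/FE leukemia cells. The Ighv segments reached 0.308 and 0.326 of the heavy chain constant level, below all 4 macrophage libraries, while the Igkv segments reached 0.937 and 0.892 of Igkc, within the range of the macrophage libraries. The leukemia markers (Hoxa9, Meis1, Mpo and others, 7 genes) summed to 3488 and 2838 FPKM in these libraries and to between 28.3 and 156 FPKM in the macrophages.

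**Figure D4:**
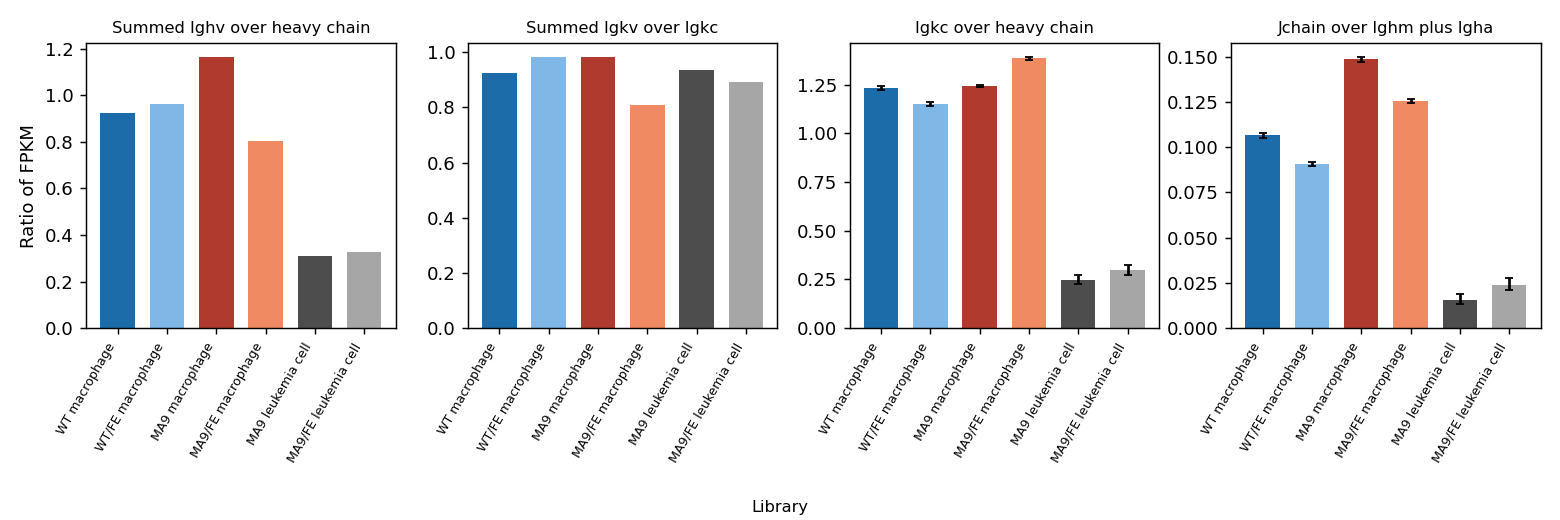
Ratios of FPKM within each library, as bars from 0, with 95% counting intervals in the right pair of panels. Summed Ighv over the heavy chain constant genes is 0.308 and 0.326 in leukemia cells, whereas summed Igkv over Igkc lies between 0.807 and 0.983 in all 6 libraries.

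Set beside the markers of the cells known to make antibody, the summed heavy chain level had a wider range than the B cell marker sum. The summed heavy chain FPKM was 2.67 times the summed B cell marker FPKM in WT, 3.38 times in WT/FE, 9.96 times in MA9 and 7.51 times in MA9/FE macrophages. Ighd kept closer to the B cell markers, at 0.169, 0.181, 0.111 and 0.144 of their sum. Plasma cell markers summed to 649 FPKM in WT and 681 in WT/FE, against 1155 in MA9 and 1365 in MA9/FE. Mzb1 alone gave 287, 289, 506 and 679 FPKM of these sums. The same list summed to 208 and 213 FPKM in MA9 and MA9/FE leukemia cells, so it is not specific to plasma cells. In macrophages, Jchain relative to the plasma cell marker sum lay between 0.882 and 1.23. Ighg2c relative to it was 0.243 in WT and 1.35 in WT/FE, against 3.80 in MA9 and 3.12 in MA9/FE.

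**Figure D5:**
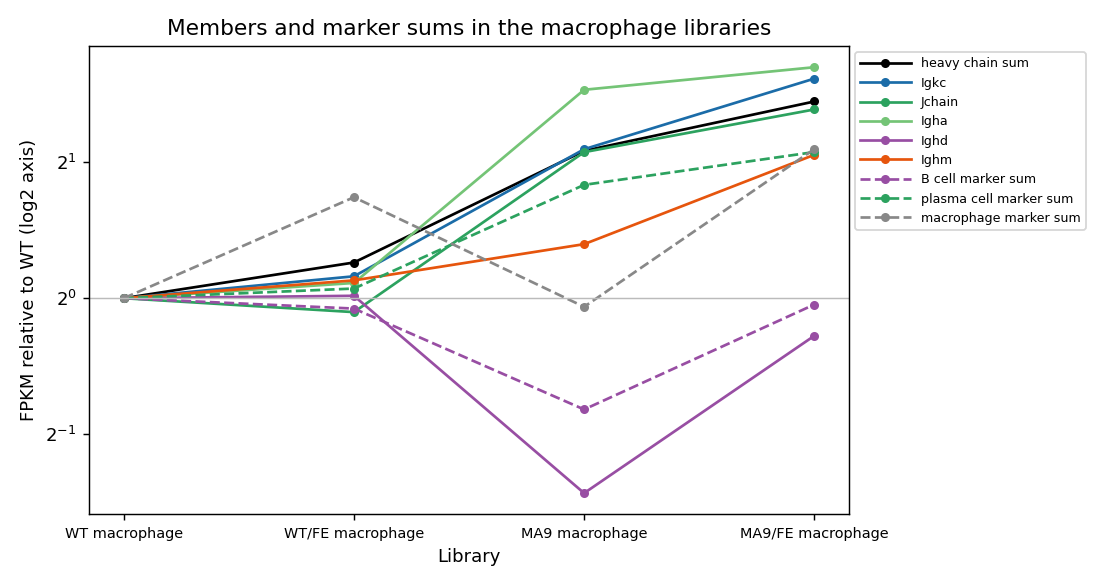
FPKM relative to the WT macrophage library on a log2 axis, for 6 of the quantities described (solid) and for marker sums (dashed). Lines only join the points of a quantity. Ighd and the B cell marker sum are lowest in MA9 (0.371 and 0.567 of WT), where Igha stands at 2.89, Jchain at 2.10 and the plasma cell marker sum at 1.78 times WT.

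Other genes of the pathway were read from lists written with the 10 genes. Of 15 genes that fold and secrete immunoglobulin in the endoplasmic reticulum, 2 were higher in MA9 against WT (Txndc5 and Derl3) and 5 in MA9/FE against WT/FE (Hsp90b1, Pdia6, Sdf2l1, Prdx4 and Mzb1), with medians over the list of 0.56 and 0.83 on the log2 scale. The share of all genes counted as higher was 3.79% and 2.93% in these pairs. Txndc5, Derl3 and Mzb1 are also in the plasma cell marker list, so the counts of the lists overlap. Mzb1, a chaperone cofactor of B and plasma cells, stood at 287 FPKM in WT and 289 in WT/FE, against 506 in MA9 and 679 in MA9/FE. Hsp90b1, a chaperone of the same compartment, stood at 135, 131, 262 and 289 FPKM, and at 140 and 143 FPKM in MA9 and MA9/FE leukemia cells. The list as a whole summed to 1214 FPKM in WT and 1160 in WT/FE macrophages. In MA9 and MA9/FE leukemia cells it summed to 935 and 930 FPKM, so it was not limited to libraries rich in antibody mRNA. In the other 3 comparisons 0 of the 15 genes passed the fold in either direction. The shares of all genes there were at most 1.2% higher and 1.26% lower, so a count of 0 says little.

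The remaining constant and surrogate light chain genes included Ighe, the IgE heavy chain. It stood at 1.16 FPKM in WT and 0.376 in WT/FE, against 1.89 in MA9 and 6.28 in MA9/FE and was listed at 0 in both leukemia cell libraries. It was counted as higher in MA9/FE against WT/FE and against MA9. Iglc2, a lambda chain gene, stood at 834, 683, 537 and 1217 FPKM, with the same high library as Iglc1. It was counted as higher in MA9/FE against MA9. Iglc2 and Iglc3 coding sequences were 96.2% identical, so their reads are uncertain, while Iglc1 shared 73.4% of bases with Iglc2 and no stretch of 50 bases with either.

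Among 12 receptors and transporters of immunoglobulin, Fcmr, the IgM receptor of B cells, was lower in MA9 than in WT, at 123 and 278 FPKM, as was Fcer2a at 43.8 and 115 FPKM. Fcer1a, a chain of the mast cell and basophil IgE receptor, was higher, at 6.48 and 1.28 FPKM. Over all genes, 3.79% were higher and 0.91% lower in this pair. In MA9/FE against WT/FE, where 2.93% of all genes were higher and 1.64% lower, Fcer1a was the 1 gene past the fold. It rested on at most 71 reads. It lay under the 100 reads set for naming and is named because it was the single one. In MA9/FE against MA9, Fcmr and Fcgrt, the neonatal Fc receptor, which carries IgG, were higher, and none was lower. Over all genes, 1.2% were higher and 1.26% lower there. The medians over the list in these pairs, in the order given, were -0.20, 0.21 and 0.42 on the log2 scale. No member of the list passed the fold in WT/FE against WT or in leukemia cells. The shares of all genes were 0.728% higher and 0.543% lower in WT/FE against WT. In leukemia cells they were 0.435% and 0.428%.

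The genes whose pattern was most like the summed FPKM of the 10 genes over the 4 macrophage libraries were searched among 11257 genes outside the immunoglobulin loci. The 5 with the highest Pearson correlation of log2(FPKM + 1) were Jun, Blvrb, Zfp105, Eif5a2 and Prelid3b, all at 0.999 or above. With 4 libraries and that many genes, such values are a description only. Jun stood at 207 FPKM in WT and 216 in WT/FE, against 271 in MA9 and 307 in MA9/FE, and Blvrb, a biliverdin reductase, at 17.0, 18.8, 29.96 and 38.7 FPKM.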

How the data were processed

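The authors deposited FPKM per Ensembl gene, 1 table per library. Bowtie2 2.2.5, RSEM and mm10 are named in the submitters' processing notes, and strand use is not given in the sources used here. The files hold 1 library per condition, so the planned values are folds and shares without tests. Symbols, exon lengths and sequences were taken from GENCODE M21; 54495 of 54532 genes had an exon length and 37 had none. Depth was recovered from the step that 1 read is worth; between 96.8% and 97.0% of values above 0 were whole within 0.05. TMM factors (30% of log ratios and 5% of levels trimmed), log2(FPKM + 1) differences, exact Poisson and binomial intervals and delta-method intervals of FPKM shares were computed with Python 3.11.15, numpy 2.4.6, pandas 2.3.3, scipy 1.17.1, statsmodels 0.14.6 and Biopython 1.88. The TMM and fold steps were tested on simulated data.

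The 10 genes, the related lists and the marker lists were chosen with earlier results of these data known. All 10 genes are named. Genes of other lists are named where they had at least 100 reads and a fold of 2 in a comparison, apart from markers and the exceptions said in place, and 5 genes for likeness. The class switch list and some single markers are not reported here. Erythroid and T cell marker lists were computed too: hemoglobin and related genes summed to 85.7 FPKM in WT and 198 in WT/FE, against 234 in MA9 and 476 in MA9/FE macrophages, while T cell markers summed to between 69.6 and 86.7 FPKM. Alternatives were other scalings, pseudocounts, read minimums, a length correction and other length units for shares.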

Additional observations from a re-analysis of the deposited data

Results flagged for a closer look

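Some genes moved in opposite directions with iron in mice with and without leukemia. With 1 library per condition these differences were not tested. Ighg2b was higher in WT/FE than in WT macrophages (0.92 on the log2 scale) and lower in MA9/FE than in MA9 (-0.26), a difference of 1.18. Ighg3 was lower in the first pair (-0.88) and higher in the second (0.33), a difference of -1.21. Iglc1 was lower in the first (-0.49) and higher in the second (0.96), a difference of -1.45. Jchain stood at -0.11 and 0.35, a difference of -0.46.

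Between iron in WT macrophages and iron in leukemia cells, Ighg2c stood at 2.53 and -0.69, a difference of 3.22, and Jchain at -0.11 and 0.63, a difference of -0.74. The Ighg2c value in leukemia cells rests on 22 and 51 reads. These differences were not tested either.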

How the results depend on the processing

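Of the 49 log2 differences of the 10 genes, 0 changed sign under the 7 other settings, and 1 changed its side of the fold of 2, Ighg2c in leukemia cells, at -1.11 with a pseudocount of 0.1, so that the count of the 10 genes there went from 0 to 1. Counts over all genes depended more on the settings. With a pseudocount of 0.1, 784 genes passed in WT/FE against WT, 1980 in MA9 against WT, 2081 in MA9/FE against WT/FE, 1498 in MA9/FE against MA9 and 630 in leukemia cells. With no minimum of reads the counts were 481 in WT/FE against WT, 731 in MA9/FE against MA9 and 375 in leukemia cells, and with a minimum of 50 reads 116, 234 and 60. Fewer or more low genes are tested in these by construction. Isotype shares depended on the length in use. In the order WT, WT/FE, MA9, MA9/FE for macrophages, then MA9 and MA9/FE for leukemia cells, the IgG share was 8.65%, 14.9%, 32.1%, 23.7%, 4.04% and 2.84% of reads, and 10.4%, 17.5%, 36.3%, 27.5%, 5.17% and 3.62% with the length of the secreted transcript, an alternative chosen after seeing the data. The Ighm share was 71.3%, 66.9%, 46.7%, 57.0%, 85.9% and 85.4% of reads, 62.9%, 58.6%, 39.1%, 49.1%, 81.5% and 80.8% with the secreted length, and 81.8%, 82.3%, 75.3%, 80.0%, 92.1% and 90.9% without the genes that share stretches of 50 bases. The last removes all 4 IgG genes and gives no IgG share. As a ratio of reads, Igkc over the heavy chains was 0.329, 0.315, 0.349, 0.387, 0.0677 and 0.0808. The order of the macrophage libraries in IgG share was the same in each unit.

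No paired analysis was possible because each condition has 1 library, and leaving out a library leaves a comparison with none on that side. Spread between animals is unknown, and counting error understates it. Ighg3 in leukemia cells, at 5 and 1 reads, is under what the depth can resolve.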
